A study of Homo sapiens with 22 samples.

Results

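The nuclear-encoded genes of oxidative phosphorylation are described here as places where N-MYC and WDR5 were found on chromatin in neuroblastoma cells. They were chosen by name, with no measured value used: protein-coding genes outside the mitochondrial chromosome whose symbols start with NDUFA, NDUFB, NDUFC, NDUFS, NDUFV, UQCR or ATP5, or with COX followed by a digit from 4 to 8 and a letter, together with SDHA, SDHB, SDHC, SDHD and CYC1. This gave 99 of 20162 protein-coding genes, namely 40 complex I subunits, 8 complex I assembly factors (symbols starting with NDUFAF), 4 genes of complex II, 10 of complex III, 17 of complex IV and 20 of complex V. NDUFA4 was counted under complex I by its symbol, although its protein is now placed in complex IV. The readthrough genes ATP5MF-PTCD1 and NDUFC2-KCTD14 share their promoters with ATP5MF and NDUFC2, so they are not independent of these genes. ATP5MGL and UQCRHL are intronless copies that lie at places of their own in the genome.

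Oxidative phosphorylation takes electrons from NADH and succinate along complexes I to IV of the inner mitochondrial membrane, and complex V uses the proton gradient they build to make ATP. A core of subunits is encoded by mitochondrial DNA, while the genes examined here lie in the nucleus and their products are imported. MYC proteins bind DNA with MAX, preferably at the E-box CACGTG, and genes of mitochondrial function and of protein synthesis are among their best known targets. WDR5 is a chromatin protein that scaffolds histone methyltransferase complexes and that binds MYC proteins directly.

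Both proteins were mapped by ChIP-seq, which sequences the DNA fixed to a protein after an antibody has captured that protein. CHP-134, an N-MYC amplified neuroblastoma line, was treated for 4 h with DMSO or with a compound that the labels name in different ways and that is therefore not identified here. DMSO stands at 0.0005% in 1 field of the labels and at 0.005% in another, and the labels give no dose of the compound. There were 3 N-MYC and 3 WDR5 libraries from each treatment, and each library pooled 3 ChIPs. IMR-32, another N-MYC amplified neuroblastoma line, was untreated, with N-MYC libraries numbered 1 and 2 and WDR5 libraries numbered 1 and 3. IgG samples were not analysed here. CHP-134 libraries were sequenced as single reads and IMR-32 libraries as paired ends, so line, treatment vehicle and sequencing cannot be told apart between the lines. Each group is cells of 1 line, and the p-values measure only the spread between these libraries.

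Each library came as a list of MACS2 peaks on hg19 with a fold enrichment over local background, and reads were not counted in these lists, so the depth of each library is unknown. A gene was said to have a peak when the middle of a peak lay within 1 kb of any of its transcription start sites (TSSs). The fold of its strongest such peak was turned into a percentile among all peaks of the same list, from 0 for the weakest to 100 for the strongest. Peak numbers ran widely. The N-MYC lists held 2964 to 15286 peaks and the WDR5 lists 15 to 5973. The compound lists of N-MYC replicate 2 (2964 peaks), WDR5 replicate 2 (15 peaks) and WDR5 replicate 3 (401 peaks) stood apart from the rest by their length, and the results that rest on them are given with this in view. A gene without a peak had none that passed MACS2 in that library, and the protein may still have been there at a lower level. Peaks do not measure expression, so the identity of the lines was not tested with marker genes.

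Sequences at N-MYC sites of these genes are printed here only where an E-box lay near the summit. For each of the 68 genes with an N-MYC peak in any DMSO library, the DMSO list where its peak had the smallest q-value was taken. Of the 68, 14 had CACGTG within 100 bp of the summit of that peak and 54 did not. The windows of 10 of these genes, chosen to cover complexes I, III and V, are printed on the strand of the gene with the E-box in capitals and with their hg19 coordinates, read from the GRCh37 sequence.
NDUFS1, chr2:207024829-207024858, minus strand: gacacgctgcgcCACGTGgccccggccccg
NDUFS7, chr19:1383707-1383736, plus strand: acccgcggccccCACGTGcgcactccgatg
NDUFA11, chr19:5903916-5903945, minus strand: ggcctggggatgCACGTGctactctcttcc
NDUFA7, chr19:8386362-8386391, minus strand: gcggagaggagtCACGTGcttcggggagag
NDUFC1, chr4:140222675-140222704, minus strand: ccgtcggcggttCACGTGgtaactgaacag
NDUFAF4, chr6:97345700-97345729, minus strand: cgccggtgttccCACGTGcggcctgaacct
UQCR11, chr19:1605631-1605660, minus strand: cggccgccagacCACGTGgccagaaagcac
ATP5F1A, chr18:43678499-43678528, minus strand: gattcagctaccCACGTGgtcacccggggc
ATP5PB, chr1:111991851-111991880, plus strand: ggcagcaaacccCACGTGgtgcacctctga
ATP5PF, chr21:27107800-27107829, minus strand: cggcgagggctcCACGTGcagcgtctctcc
The E-box lay 3 bp from the summit at NDUFA11, 4 bp at NDUFS1, 7 bp at ATP5F1A and 10 bp at NDUFAF4, and 95 bp away at ATP5PB. It lay upstream of the nearest TSS of the gene at 8 of these 10 genes, from 118 bp at NDUFA7 to 610 bp at NDUFS1, and downstream of it at NDUFAF4 (52 bp) and ATP5PF (136 bp).

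N-MYC was found at more of these genes than of all protein-coding genes in each of the 8 N-MYC lists. In CHP-134 DMSO, 57, 39 and 49 of the 99 genes had an N-MYC peak in replicates 1, 2 and 3, which is 57.6, 39.4 and 49.5%. The shares of all protein-coding genes in the same lists were 43.8, 29.8 and 37.1%. In the compound lists 47, 14 and 43 of the genes had a peak (47.5, 14.1 and 43.4%, against 33.9, 10.7 and 36.6% of all genes). In IMR-32 these were 37 and 24 genes (37.4 and 24.2%, against 25.5 and 17.7%). The share of the oxidative phosphorylation genes was thus 1.19 to 1.47 times that of all genes, replicate 3 of the compound lists giving the lowest ratio and replicate 1 of IMR-32 the highest. All genes here include genes that a neuroblastoma cell may not express, and expression was not measured in these files, so this ratio is a description of the lists and was not tested.

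**Figure D1:**
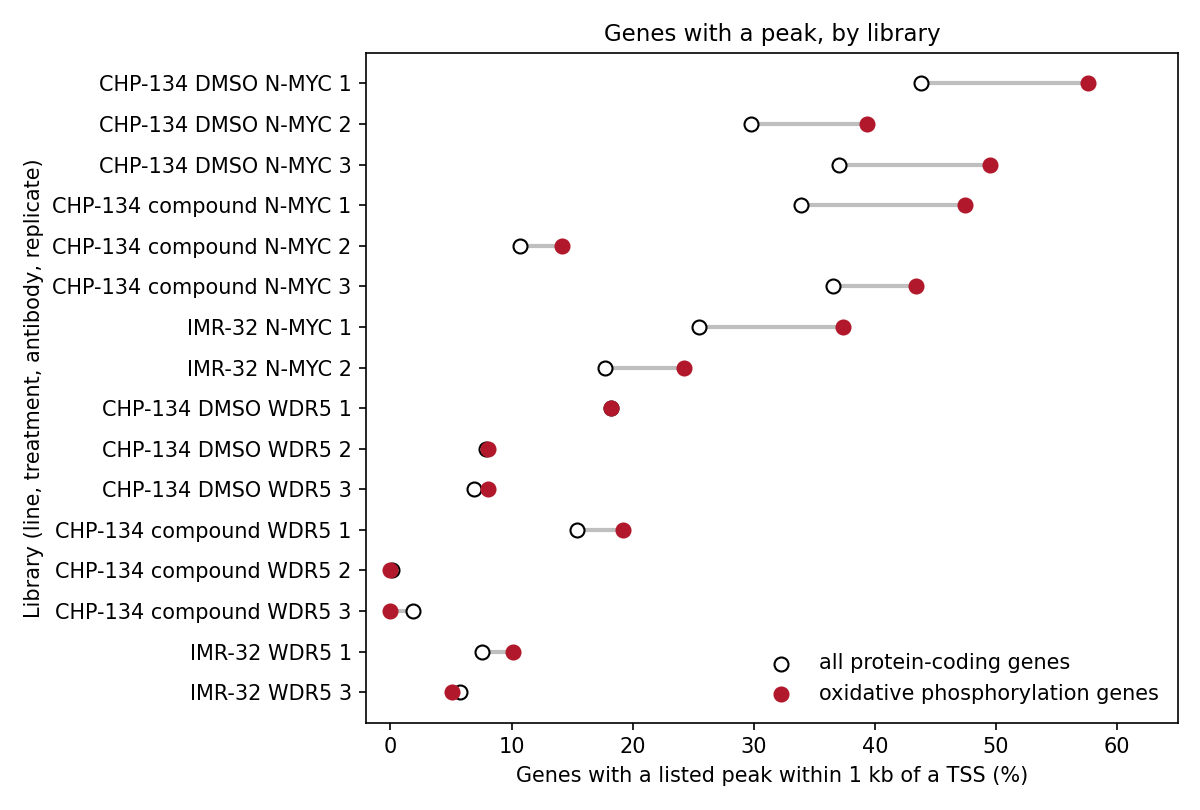
Percent of genes with a peak within 1 kb of a TSS in each of the 16 lists (1 row per library), for the 99 oxidative phosphorylation genes (filled points) and all 20162 protein-coding genes (open points). The filled point lies to the right of the open one in all 8 N-MYC lists, while the points nearly coincide in the WDR5 lists of CHP-134 DMSO.

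These N-MYC peaks were not especially strong ones. Their median percentile was 55.3, 45.1 and 52.4 in the 3 DMSO lists, beside 59.3, 54.4 and 56.9 for the peaks at all protein-coding genes. In IMR-32 it was 41.3 and 52.3, beside 57.4 and 54.2. Of the 8 N-MYC lists only compound replicates 1 and 2 had a median above that of all genes (59.7 and 55.8, beside 56.1 and 50.8), and replicate 3 lay below it (52.2 beside 57.2).

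Consensus regions, which need peaks of at least 2 libraries of a group, gave the same order of groups. In CHP-134 DMSO, 43 of the 99 genes had an N-MYC consensus region, beside 36.7% of all protein-coding genes. With the compound, 35 had one, beside 28.8% of all genes, and in IMR-32 23, beside 14.8%. Without replicate 1 or replicate 3 of the compound the 35 became 14, because a gene then had to be called in the short list of replicate 2, and without replicate 2 the count stayed 35. A consensus region was present in all 3 groups at 21 of the 99 genes, beside 2629 of the 20162 protein-coding genes. Of the 21, 9 are complex I subunits (NDUFA4, NDUFA6, NDUFA7, NDUFA11, NDUFB2, NDUFB9, NDUFC1, NDUFS1 and NDUFS7). Another 4 are assembly factors (NDUFAF3, NDUFAF4, NDUFAF6 and NDUFAF8), 1 belongs to complex III (UQCR11), 2 to complex IV (COX5A and COX7A2L) and 5 to complex V (ATP5F1A, ATP5MC1, ATP5MK, ATP5PB and ATP5PF). The IMR-32 set lay almost within that of CHP-134 DMSO: 21 of its 23 genes (91.3%) were shared, which is 48.8% of the 43 DMSO genes. Over all protein-coding genes the shared part was 95.2% of the IMR-32 set and 38.3% of the DMSO set.

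The complexes differed widely in how many of their genes had N-MYC. Complex V had N-MYC at 15, 9 and 13 of 20 genes in the 3 DMSO lists, the complex I assembly factors at 6, 5 and 7 of 8, complex III at 6, 6 and 5 of 10 and the complex I subunits at 25, 17 and 18 of 40. Complex IV had it at 3, 2 and 3 of 17, which is 17.6, 11.8 and 17.6% and below the share of all protein-coding genes in each of these lists. Complex II, with 2, 0 and 3 of 4 genes, is too small to rank. In IMR-32 N-MYC was at 6 and 4 of 8 assembly factors, 19 and 10 of 40 complex I subunits and 8 and 7 of 20 complex V genes. It was at 2 and 1 of 10 complex III genes, 2 and 2 of 17 complex IV genes and no complex II gene. Complex III, at 20 and 10%, was there below the share of all protein-coding genes (25.5 and 17.7%), while in DMSO it was above it. Differences between complexes were not tested, since the genes of a complex are not replicates.

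**Figure D2:**
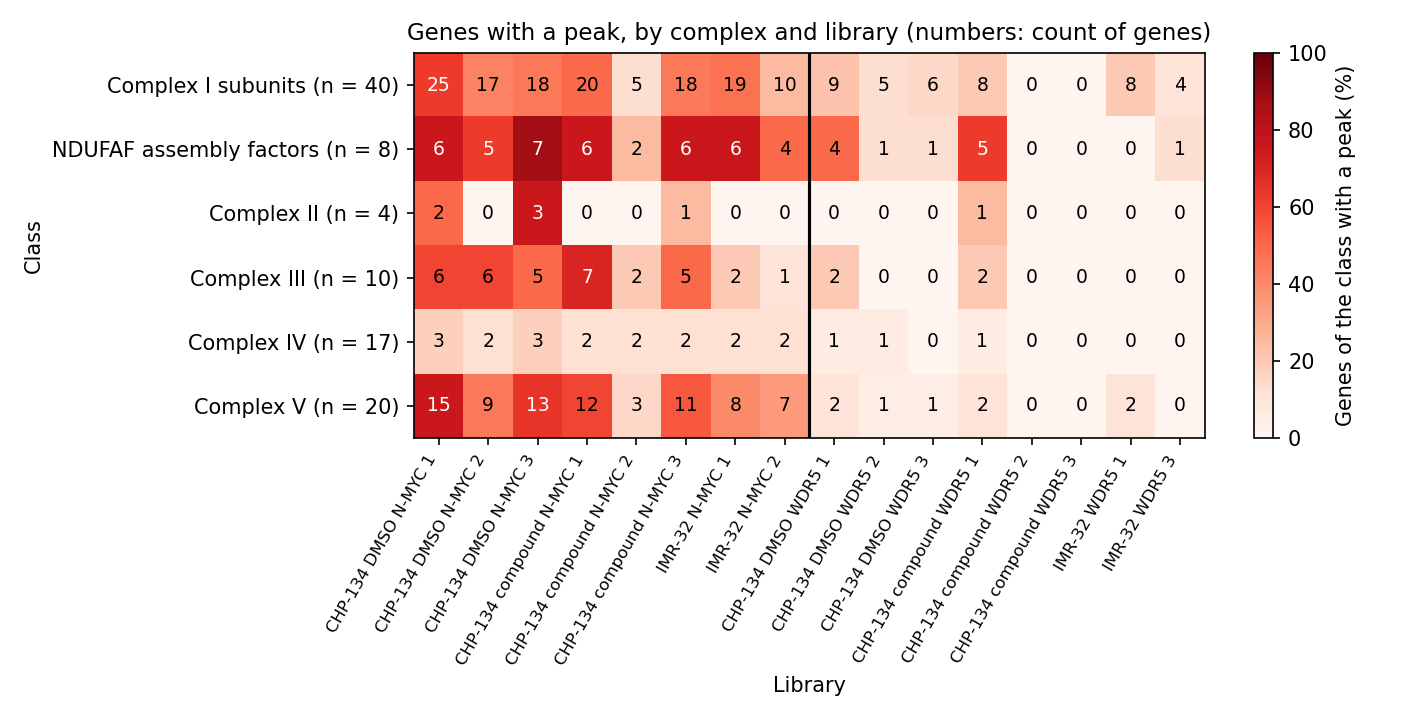
Number of genes with a peak (figures in the cells) and percent of the class (colour) for each class (rows) and library (columns, N-MYC left and WDR5 right of the black line). Complex IV stays at 2 or 3 of 17 genes in every N-MYC list, and the assembly factors lie at 5 to 7 of 8 genes in the DMSO lists.

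Complex I, the NADH dehydrogenase, held the gene with the highest mean N-MYC percentile in DMSO. NDUFS1, which carries iron-sulfur clusters of the electron-accepting arm, had percentiles of 98.0, 95.1 and 98.4 in DMSO, 97.7, 85.4 and 97.6 with the compound and 97.7 and 92.8 in IMR-32. It was among the strongest peaks of every list except the short compound replicate 2. The peak of DMSO replicate 1 spans chr2:207023833-207025273, and the summits of all 8 lists fell within 44 bp of each other, 585 to 629 bp upstream of the TSS of NDUFS1. In all 8 lists the summit was nearer to a TSS of EEF1B2, a translation elongation factor gene that is transcribed in the opposite direction from the same region, so the peak cannot be assigned to NDUFS1 alone.

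NDUFB2, an accessory subunit of the membrane arm, had N-MYC percentiles of 93.2, 97.1 and 87.4 in DMSO, 77.4, 92.9 and 82.7 with the compound, and 65.2 and 69.4 in IMR-32. The IMR-32 values lay below all those of CHP-134. Its DMSO consensus region, chr7:140395645-140397383, covers its own TSS, and every summit was at least 23893 bp from the TSS of another gene. NDUFA4 had percentiles of 96.5, 81.3 and 95.8 in DMSO, 83.5, 46.7 and 89.2 with the compound, and 38.8 and 57.8 in IMR-32. Its DMSO region is chr7:10979695-10980397, and the summits lay 204 to 290 bp upstream of its TSS. NDUFB2 and NDUFA4 had no CACGTG within 100 bp of the summit examined.

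NDUFS7, an iron-sulfur subunit close to the site where ubiquinone is reduced, varied more between the compound libraries. Its percentiles were 83.3, 76.3 and 89.0 in DMSO, 28.3, 32.6 and 91.2 with the compound and 96.1 and 87.6 in IMR-32. Compound replicates 1 and 2 were low, while replicate 3 lay above all DMSO values, so the groups overlap. NDUFC1, a small accessory subunit, was steadier where it was called, with 79.5, 77.9 and 72.2 in DMSO, 91.3 and 76.0 in compound replicates 1 and 3, and 76.7 and 79.8 in IMR-32. NDUFA11 had 62.0, 61.6 and 53.2 in DMSO and 78.7 and 83.0 in IMR-32, without overlap. The summits at NDUFC1 were nearer to the TSS of NAA15 in all 7 lists that called them.

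At the other end, 8 complex I subunits had no N-MYC peak in any of the 8 lists (NDUFA2, NDUFA3, NDUFA9, NDUFA13, NDUFB4, NDUFB6, NDUFB7 and NDUFS4). NDUFA9 and NDUFS4 belong to the matrix arm, and the genes named NDUFB encode subunits of the membrane arm. Others without N-MYC in DMSO had a weak peak elsewhere, such as NDUFA12 at percentile 29.6 in compound replicate 3 and 11.3 in IMR-32 replicate 1, and NDUFB11 at 30.1 in compound replicate 1. NDUFV1, which binds NADH and FMN, had a single peak, at 36.6 in DMSO replicate 1. NDUFA4L2, a homologue of NDUFA4, had N-MYC in all 3 DMSO lists, at 70.0, 38.1 and 50.2.

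The complex I assembly factors are not part of the mature enzyme but help to build it, and all 8 had N-MYC in at least 1 DMSO list. NDUFAF6 had percentiles of 95.6, 97.2 and 87.4 in DMSO, 92.2, 85.5 and 91.9 with the compound and 75.2 and 54.2 in IMR-32. Its strongest peak was not always the same one: in replicate 3 of both treatments it lay at another TSS of the gene, up to 129295 bp away from the peak of the other lists. NDUFAF4 had 77.5, 94.6 and 28.6 in DMSO, 85.2, 67.4 and 27.4 with the compound and 77.1 and 42.7 in IMR-32. NDUFAF3 had 80.1, 60.9 and 51.5 in DMSO, 81.6 and 45.2 in compound replicates 1 and 3, and 39.9 and 50.4 in IMR-32. At NDUFAF4 and NDUFAF3 replicate 3 was the lowest of its group in both treatments.

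Complex II, succinate dehydrogenase, links the chain to the citric acid cycle, and its N-MYC peaks were weak and came and went between libraries. SDHA, the flavoprotein, had a peak at percentile 1.87 in DMSO replicate 1 and in no other list. SDHB, the iron-sulfur subunit, had 24.4 in DMSO replicate 3 and 18.5 in compound replicate 3. Of the membrane anchors, SDHC had 17.4 in DMSO replicate 3, and SDHD had 33.7 and 7.50 in DMSO replicates 1 and 3. No complex II gene had N-MYC in IMR-32, and SDHD was the only one with a consensus region in DMSO.

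Complex III, the cytochrome bc1 complex, had a clear leading gene. UQCR11, its smallest subunit, had percentiles of 93.0, 91.3 and 90.5 in DMSO, 89.4, 59.2 and 85.3 with the compound and 96.1 and 92.4 in IMR-32. Its summits lay 121 to 189 bp upstream of the TSS in all 8 lists, next to the E-box printed above. UQCRH, the hinge protein, had 87.5, 65.5 and 62.7 in DMSO, 79.3, 42.0 and 58.6 with the compound and 21.6 in IMR-32 replicate 1 alone. Its summit was nearer to a TSS of LRRC41 in all 7 lists that called it, so this peak cannot be assigned to UQCRH alone. CYC1, which encodes cytochrome c1, had 85.7, 45.1 and 13.3 in DMSO, 71.3 and 39.1 in compound replicates 1 and 3, and no peak in IMR-32. These values of CYC1 span most of the scale within 1 group. Of the core proteins, UQCRC1 had no DMSO peak and UQCRC2 weak ones (18.8, 4.33 and 16.9), and UQCRB and the copy UQCRHL had none in any list.

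Complex IV, cytochrome c oxidase, had the lowest mean share of genes with N-MYC in each group, apart from complex II, which is too small to rank. NDUFA4 was counted under complex I and is not among its genes here. COX5A, which surrounds the core with COX5B, had 83.8, 72.8 and 22.1 in DMSO, 52.2, 2.78 and 48.1 with the compound and 31.1 and 5.61 in IMR-32. COX7A2L, which takes part in joining complexes III and IV into supercomplexes, had 82.2, 43.4 and 76.2 in DMSO, 62.3, 60.1 and 52.0 with the compound and 41.3 and 6.01 in IMR-32. COX4I1 and COX5B had a single peak each, at 16.5 and 18.7. These are the only 4 of the 17 genes with an N-MYC peak in any list. The 13 others comprise 6 isoforms known for restricted expression (COX4I2, COX6A2, COX6B2, COX7A1, COX7B2 and COX8C) and 7 of the 11 widely expressed genes (COX6A1, COX6B1, COX6C, COX7A2, COX7B, COX7C and COX8A).

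Complex V, the ATP synthase, had N-MYC at many genes and over the whole range of strength. ATP5F1A, the alpha subunit of the catalytic head, had 89.4, 92.2 and 93.9 in DMSO, 91.0, 75.6 and 92.7 with the compound and 83.1 and 14.8 in IMR-32. The 2 IMR-32 libraries thus disagree about this gene. ATP5F1B, the catalytic beta subunit, had only 2.78, 20.8 and 21.7 in DMSO, no peak with the compound and 8.70 in IMR-32 replicate 2. In the DMSO lists these subunits of the same head thus lay far apart, while in IMR-32 replicate 2 both were low. ATP5PB, of the peripheral stalk, had 94.7, 48.8 and 88.2 in DMSO, 93.6 and 85.9 in compound replicates 1 and 3, and 88.0 and 50.0 in IMR-32. In all 7 lists that called it, the summit was nearer to a TSS of WDR77, so this peak cannot be assigned to ATP5PB alone. ATP5MC1, which encodes the c subunit of the rotating ring, had 73.8, 49.2 and 88.4 in DMSO, 68.4, 16.0 and 92.7 with the compound and 61.3 and 64.6 in IMR-32. ATP5PF, also of the stalk, had 54.9, 87.0 and 68.8 in DMSO and 29.6 and 23.0 in IMR-32, without overlap. ATP5IF1, the inhibitor of the enzyme, ATP5PO and the copy ATP5MGL had no N-MYC peak in any list.

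**Figure D3:**
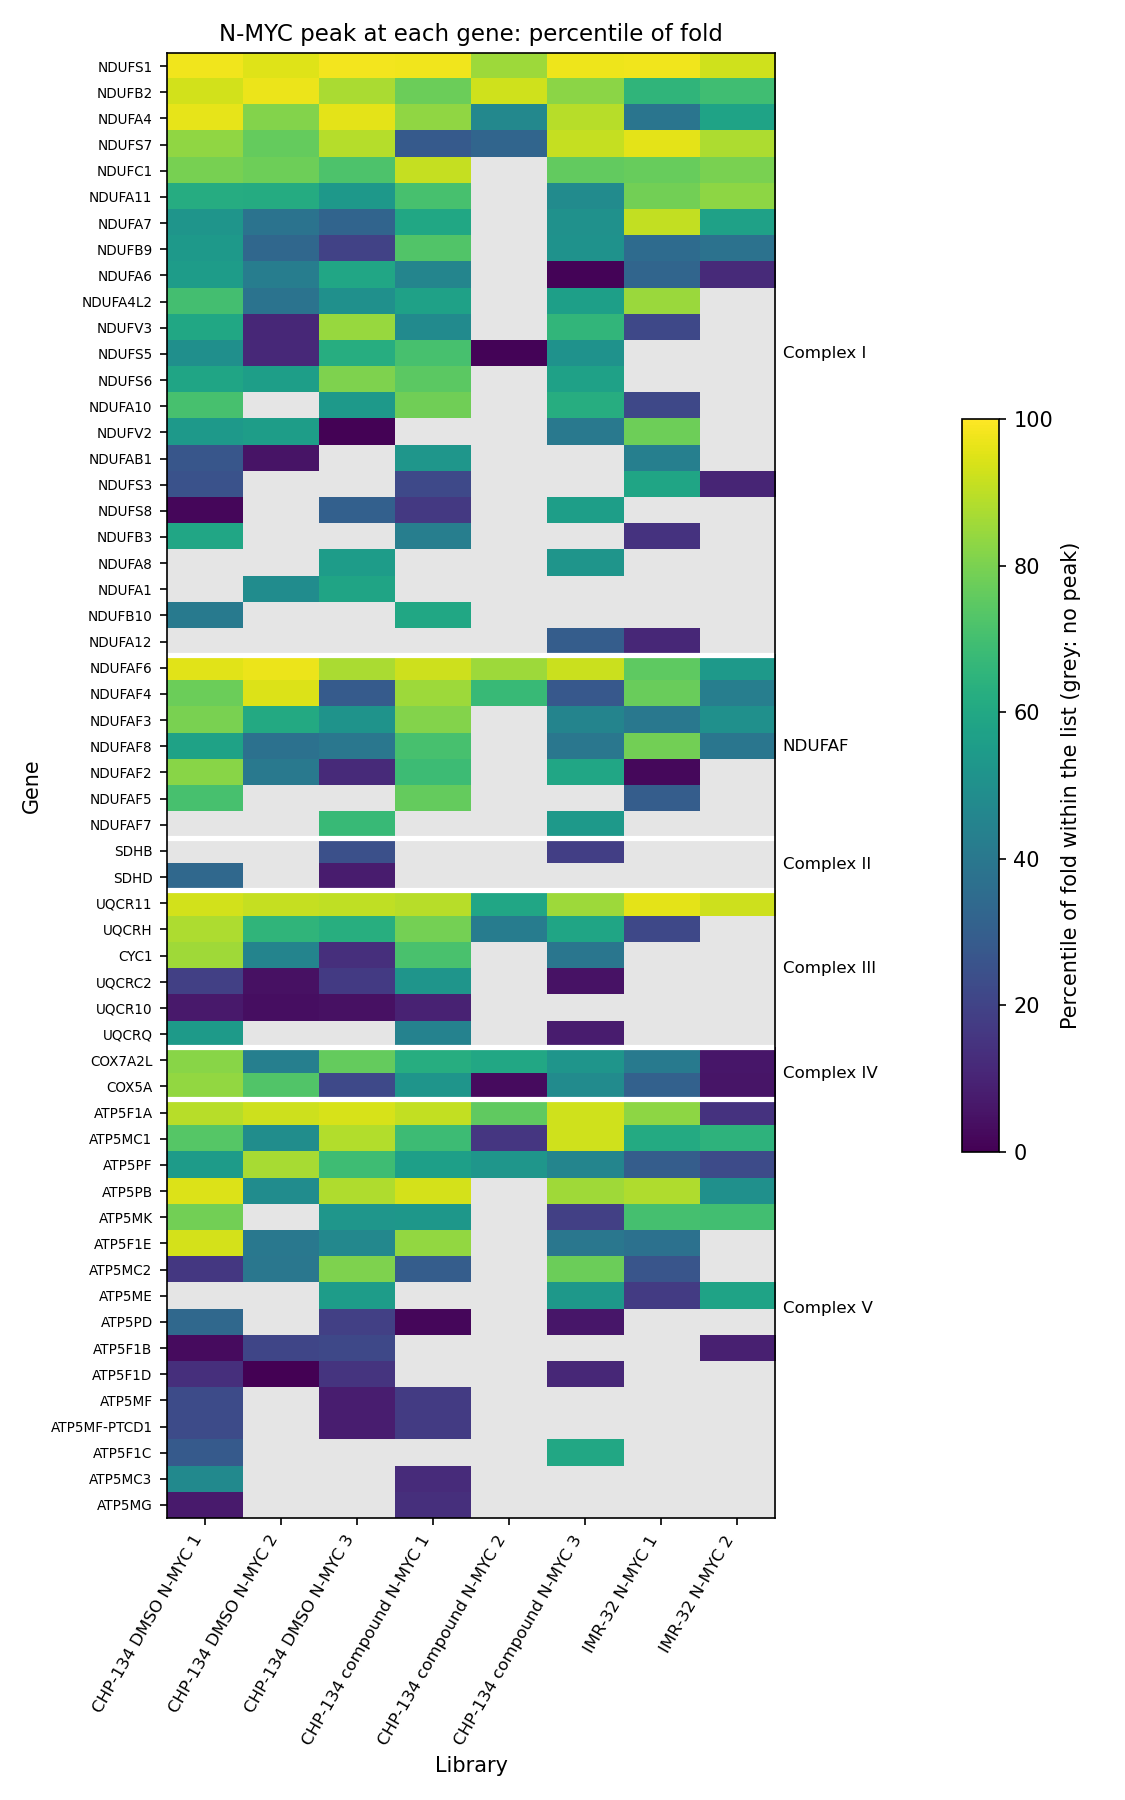
Percentile of the fold of the strongest N-MYC peak (colour, 0 to 100) for the 56 genes with such a peak in at least 2 of the 8 lists (rows, grouped by class) and each library (columns); grey marks no peak. NDUFS1 and UQCR11 are bright in nearly every column, and the column of compound replicate 2 is mostly grey.

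N-MYC in all 8 lists was seen at 12 of the 99 genes (12.1%, beside 7.37% of all protein-coding genes), and in none of them at 26 (26.3%, beside 49.02%). Exactly 1 list had N-MYC at 17 genes (17.2%, beside 7.27%).

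Many of these genes share a promoter with another gene, which can limit how far a peak can be assigned. A TSS of another protein-coding gene transcribed in the opposite direction lay within 1 kb upstream at 37 of the 99 genes (37.4%), beside 12.7% of all protein-coding genes. Any annotated TSS of a gene counted, so the partner need not lie near the peak. At ATP5F1A the partner HAUS1 lay 152 bp from a TSS, but the N-MYC summits were 5783 to 5845 bp from HAUS1. Partners include the ribosomal protein gene RPS28 at NDUFA7, the mitochondrial ribosomal protein genes MRPL36 at NDUFS6 and MRPL47 at NDUFB5, and, 68 bp from ATP5PF, GABPA, which encodes a transcription factor of mitochondrial genes. At NDUFA7 the N-MYC summit was nearest to the TSS of RPS28 in 4 of the 7 lists that called it, and in the 3 others it lay 36 to 58 bp from the TSS of an overlapping gene and only 4 bp farther from that of NDUFA7 itself. Over all DMSO N-MYC peaks at these genes, 25.5% of summits were nearer to the TSS of another gene. This takes in the readthrough gene ATP5MF-PTCD1, whose summits were nearer to ATP5MF. The same share over all protein-coding genes was not computed. Among all protein-coding genes, N-MYC in at least 2 DMSO libraries was commoner at genes with such a partner (60.9%) than without (33.5%). Among the oxidative phosphorylation genes the same shares were 48.6% (18 of 37) and 40.3% (25 of 62). These genes thus lay below all genes where they had a partner and above them where they had none.

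A peak counted for a gene only when its middle lay within the set distance of a TSS, so closeness to the promoter was fixed in advance by this rule. The distances given here only describe where the summits fell within that window. They were not compared with those of all protein-coding genes. The median summit of the DMSO N-MYC peaks was 96 bp upstream of the nearest TSS of the gene (quartiles 230 bp upstream and 54 bp downstream), and in IMR-32 it was 80 bp upstream. Within 300 bp of a TSS lay 87.7, 82.1 and 75.5% of the summits in the 3 DMSO lists.

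The E-box was about as common under these peaks as under the others. CACGTG lay within 100 bp of the N-MYC summit at 22.8, 28.2 and 28.6% of the genes with a peak in the 3 DMSO lists, beside 22.8, 29.3 and 26.9% of all genes with one. In IMR-32 it was 37.8 and 45.8%, beside 31.1 and 37.1%. The peaks that had it ranked higher: in the DMSO lists their median percentile was 77.5, 77.9 and 70.5, against 51.7, 41.4 and 39.8 for the peaks without. The same was seen over all genes, with medians of 79.9, 73.2 and 79.0 against 52.7, 47.2 and 48.6.

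The promoters of these genes carried other motifs more often than E-boxes. Letters were searched on both strands in the 300 bp around the main TSS (250 bp upstream to 50 bp downstream, GRCh37), and a promoter could count for several motifs, also where their matches overlapped. The core of NRF1, a factor known for its role at respiratory chain genes, was searched as GCATGCGC and found at 15 of 99 promoters (15.2%, beside 4.27% of all protein-coding genes). The core CCGGAAGT of ETS factors such as GABP was found at 13 (13.1%, beside 6.10%) and the YY1 core AAGATGGC at 17 (17.2%, beside 4.02%). CACGTG was found at 9 (9.09%, beside 8.74%). N-MYC in at least 2 DMSO libraries was present at 7 of the 9 genes with CACGTG in the promoter and at 36 of the 90 without, beside 65.3 and 34.3% of all genes. For the NRF1 core these were 6 of 15 and 37 of 84 (over all genes 55.9 and 36.1%), and for the YY1 core 7 of 17 and 36 of 82 (56.5 and 36.1%). For the ETS core they were 8 of 13 and 35 of 86 (54.6 and 35.8%). Over all genes the shares with NRF1 or YY1 letters lay above those without them, while here they lay slightly below. A match is a description of letters and was not tested as a site.

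WDR5 was found at few of these genes, about as often as at any gene. In CHP-134 DMSO, 18, 8 and 8 of the 99 genes had a WDR5 peak in replicates 1, 2 and 3 (18.2, 8.08 and 8.08%, beside 18.2, 7.87 and 6.90% of all protein-coding genes). In IMR-32 there were 10 and 5 (10.1 and 5.05%, beside 7.60 and 5.72%). Replicate 1 of the compound lists had 19 (19.2%, beside 15.4%), and its short replicates 2 and 3 had 0 (beside 0.0942 and 1.86%). A WDR5 consensus region was present at 8 genes in DMSO, beside 7.73% of all genes, at 4 in IMR-32, beside 4.55%, and at 0 with the compound, beside 1.18%. The DMSO count leaned on each library: it was 4 without replicate 1, 5 without replicate 2 and 3 without replicate 3.

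The genes with a WDR5 consensus region were mostly subunits of complex I, which is also the largest class (40 of the 99 genes). Of the 8 with a DMSO consensus region, 6 are complex I subunits (NDUFB4, NDUFB5, NDUFB8, NDUFS6, NDUFS7 and NDUFV3), 1 is an assembly factor (NDUFAF7) and 1 belongs to complex V (ATP5F1E). All 4 in IMR-32 are complex I subunits (NDUFB5, NDUFB8, NDUFS3 and NDUFV3). The share of complex I subunits with such a region was 15% in DMSO, beside 7.73% of all protein-coding genes. In IMR-32 the share was 10%, beside 4.55%. The difference was not tested. NDUFV3, a small subunit of the NADH-binding module, was the only gene called in every DMSO and IMR-32 list, with WDR5 percentiles of 78.6, 74.7 and 86.6 in DMSO and 78.0 and 70.2 in IMR-32. Its 5 summits lay 775 to 924 bp upstream of its TSS, while the N-MYC summits lay 177 to 543 bp upstream.

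NDUFB4, a subunit of the membrane arm, had the highest mean WDR5 percentile in DMSO among the genes called in at least 2 libraries, at 95.2 and 88.0 in DMSO replicates 1 and 3, 89.8 in compound replicate 1 and 41.7 in IMR-32 replicate 1. It had no N-MYC peak in any of the 8 lists. Its WDR5 summits lay 321 to 343 bp downstream of its TSS. NDUFB5, of the same arm, had WDR5 at 93.3 and 74.2 in DMSO replicates 1 and 2 and at 65.9 and 59.7 in IMR-32, with summits 125 to 134 bp from the TSS of MRPL47. NDUFB8 had 92.9 and 38.7 in DMSO replicates 1 and 3, 42.9 in compound replicate 1 and 39.1 and 46.7 in IMR-32. ATP5F1E, the epsilon subunit of the ATP synthase head, had 94.8, 33.0 and 23.2 in DMSO and none elsewhere. At each of NDUFB8 and ATP5F1E replicate 1 was far above the other DMSO values. The stretches of 30 bases around the WDR5 summits of the 3 genes with the highest means in DMSO are shown, since none of them has CACGTG within 100 bp. They are on the plus strand, which is the strand of all 3 genes, and carry no capitals.
NDUFB4, chr3:120315522-120315551: acccttttacctttgccagagcttggccct
NDUFB5, chr3:179322277-179322306: ttggagaggtgggcaaacctactttataca
NDUFV3, chr21:44312531-44312560: cctctttgataaaggcctttgataaaggcc
At the genes with a WDR5 peak, CACGTG lay within 100 bp of the WDR5 summit in 1 of 18, 0 of 8 and 0 of 8 cases in the DMSO lists, beside 16.4, 18.8 and 19.7% of all genes with a WDR5 peak. In compound replicate 1 it was 3 of 19 (beside 13.5%), and in IMR-32 1 of 10 and 0 of 5 (beside 14.2 and 13.2%).

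**Figure D4:**
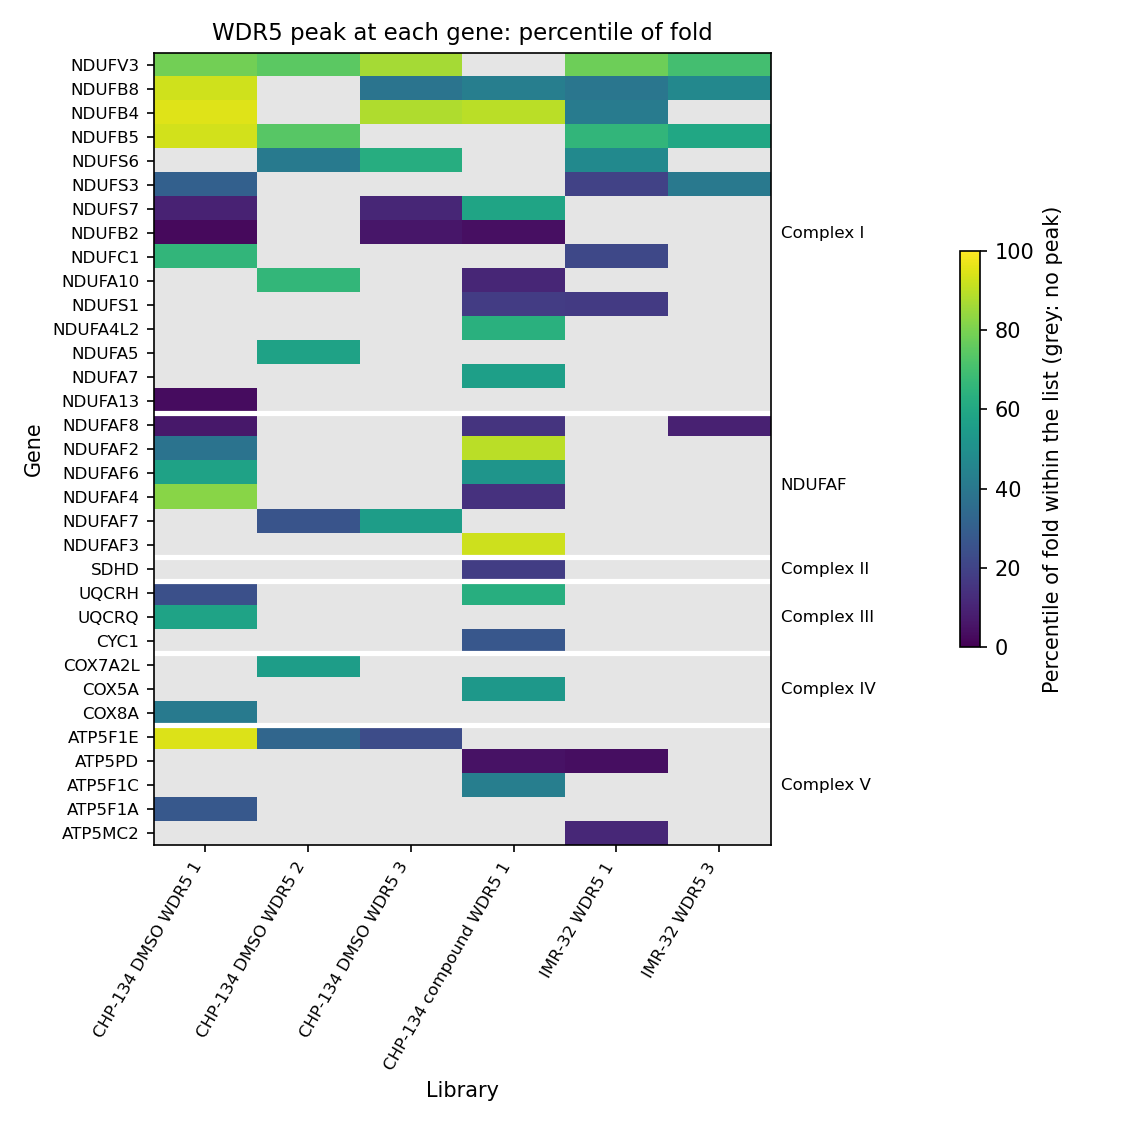
Percentile of the fold of the strongest WDR5 peak (colour) for the 33 genes with such a peak in any list (rows, grouped by class) and 6 libraries (columns); compound replicates 2 and 3, which had no peak at these genes, are left out. Complex I subunits fill the upper part of the plot, and NDUFV3 lacks a peak only in the compound column.

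Both proteins on overlapping consensus regions (cobound) were rare. In CHP-134 DMSO 4 of the 99 genes were cobound, beside 6.94% of all protein-coding genes: NDUFS6, NDUFS7, NDUFV3 and ATP5F1E. With the compound there were 0, beside 1.05%, and in IMR-32 1, NDUFS3, beside 2.26%. The joined regions were chr5:1800463-1801616 at NDUFS6, chr19:1383494-1384215 at NDUFS7, chr21:44312196-44313902 at NDUFV3, chr20:57606878-57608092 at ATP5F1E and chr11:47600428-47600956 at NDUFS3. NDUFS3, a core subunit of the matrix arm, had N-MYC at 58.6 and 10.3 and WDR5 at 19.8 and 40.3 in IMR-32. In CHP-134 DMSO it had both only in replicate 1, at 25.4 for N-MYC and 30.6 for WDR5. At NDUFS6 all summits of both proteins were nearer to a TSS of MRPL36. Over the lists as a whole, 30 of the 99 genes had both N-MYC and WDR5 in some list, 43 only N-MYC, 3 only WDR5 (NDUFB4, NDUFA13 and COX8A) and 23 neither. The same split over all protein-coding genes was not computed, so these counts cannot tell whether it is particular to the 99 genes.

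The summits of the 2 proteins were farther apart at these genes than over all genes in the DMSO lists. Where a gene had both, the median distance was 232 bp over 15 genes, 435 bp over 5 and 356.5 bp over 6 in replicates 1, 2 and 3, beside 164, 127 and 132 bp over all genes. The order was opposite in IMR-32 replicate 1, at 59 bp over 5 genes beside 170 bp, and in compound replicate 1, at 116 bp over 15 genes beside 220 bp. Within the DMSO lists the ranks for the 2 proteins differed by less than the spread of the libraries. The mean of the median percentiles in DMSO was 50.9 ± 5.26 (SD, n = 3) for N-MYC and 51.0 ± 4.93 (SD, n = 3) for WDR5 (exact permutation test over libraries, two-sided, p = 1). In IMR-32 it was 46.8 ± 7.77 and 38.6 ± 11.5 (SD, n = 2 each, exact p = 0.667, where the smallest possible is 0.333).

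After treatment with the compound, fewer of the genes had N-MYC in each of the 3 pairs of same-numbered libraries (47.5 against 57.6%, 14.1 against 39.4% and 43.4 against 49.5%), and the difference passed no test. The mean share with an N-MYC peak was 35.0% ± 18.2 with the compound and 48.8% ± 9.11 with DMSO (SD, n = 3 each), a difference of -13.8 percentage points (exact permutation test, two-sided, p = 0.4, adjusted p = 0.741 over 10 tests, smallest possible p 0.1). With the libraries paired by number, the exact p was 0.25, the smallest that 3 pairs allow. Over all protein-coding genes the mean shares were 27.0 and 36.9%, also lower with the compound in all 3 pairs. When every list was cut to its 2964 strongest peaks, the difference was 0.673 points, so with lists of equal length it was no longer negative. For WDR5 the share was 6.40% ± 11.1 against 11.4% ± 5.83 (exact p = 0.6, adjusted p = 0.741). Compound replicate 1, with 19.2%, was above the highest DMSO list, and replicates 2 and 3 were at 0. An exact permutation test found no difference between the effects for the 2 antibodies past the threshold (-8.75 points, p = 0.64), and the sign of this value turned to 1.68 points without compound N-MYC replicate 2.

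The median percentile of the N-MYC peaks was 55.9 ± 3.77 with the compound and 50.9 ± 5.26 with DMSO (SD, n = 3 each, exact permutation p = 0.3). This measure takes in different genes in each list. Over the 14 genes with a peak in all 6 libraries, which the short list of compound replicate 2 largely sets, the difference was -13.0 points in place of 5.01. For WDR5 only compound replicate 1 could be used, at 42.9 against a mean of 51.0 ± 4.93 (SD, n = 3) in DMSO, and 1 library allows no test.

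Gene by gene, limma was fitted to the percentiles of the 2037 genes with an N-MYC peak in all 6 CHP-134 libraries, 14 of them oxidative phosphorylation genes. It called 0% of genes, also among the 14 (adjusted p of 0.872 or more), and 55 genes had an unadjusted p under 0.05, none of them among the 14. With the replicate number as a block it also called none. All 14 had a lower mean percentile with the compound, as had 89.0% of all genes in the fit, and the median difference was -10.3 beside -9.93 over all genes. With percentiles taken among the genes of the fit, 6 of 14 were lower (49.1% of all genes, median difference 0.675 beside 0.115), and with the centred log2 fold 8 of 14. Without compound replicate 2 the median difference was 0.723 over 30 of the genes and -0.566 over all. In the fit of all 6 libraries without a block, the lowest values were those of NDUFS7 (-32.2 ± 18.1, SE) and COX5A (-25.2 ± 21.6, SE). With the block, their SEs were 13.8 and 21.2.

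Consensus regions were shared by 34 genes between the treatments, which is 79.1% of the 43 genes in DMSO and 97.1% of the 35 with the compound (over all genes 74.98 and 95.6%). The 9 genes found in DMSO alone were ATP5F1B, ATP5F1D, ATP5MF and its readthrough gene, NDUFA1, NDUFAB1, NDUFV2, SDHD and UQCR10, and the single gene found with the compound alone was UQCRQ. The DMSO percentiles of these 9 ran from 0.23 to 58.3, so none of them had a peak near the top of a list. UQCR10, a small subunit of complex III, had 6.73, 3.63 and 4.59.

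Between the lines, N-MYC was called at fewer of the genes in IMR-32, without overlap between the groups. The share was 30.8% ± 9.29 (SD, n = 2) in IMR-32 and 48.8% ± 9.11 (SD, n = 3) in CHP-134 DMSO, a difference of -18.0 points (exact permutation p = 0.2, the smallest possible, adjusted p = 0.741). Over all protein-coding genes the shares were 21.6% and 36.9%, also without overlap. With 2964 strongest peaks from each list the difference was 1.85 points. The median percentile was 46.8 ± 7.77 against 50.9 ± 5.26 (exact p = 0.4). For WDR5 the share was 7.58% ± 3.57 against 11.4% ± 5.83 (exact p = 0.6) and the median percentile 38.6 ± 11.5 against 51.0 ± 4.93 (exact p = 0.2, the smallest possible). The effects of line for the 2 antibodies differed by -14.1 points (exact permutation p = 0.3).

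Of 2602 genes with an N-MYC peak in all 5 DMSO and IMR-32 libraries, 20 were oxidative phosphorylation genes. limma called 0% of the 2602 and none of the 20, while 360 genes and 6 of the 20 had an unadjusted p under 0.05. These 6 were NDUFA4, NDUFB2, ATP5PF, NDUFAF6 and NDUFA6, lower in IMR-32, and NDUFA11, higher there. NDUFA4 had the smallest adjusted p of the 20 in limma, 0.176, with a difference of -42.9 ± 9.24 (SE) percentile points. NDUFA11 differed by 21.9 ± 5.98 (SE, limma adjusted p = 0.246). NDUFS1 and UQCR11 differed little, by -1.86 ± 5.32 and 2.63 ± 5.17 (SE, limma adjusted p = 0.913 and 0.873). For WDR5, 496 genes had a peak in all 5 libraries, NDUFV3 alone among these genes, and limma called 0% of them, with 64 at an unadjusted p under 0.05. NDUFV3 differed by -5.88 ± 5.09 (SE, limma adjusted p = 0.820).

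Other genes of mitochondrial function and of protein synthesis had N-MYC more often than the oxidative phosphorylation genes. In CHP-134 DMSO, N-MYC consensus regions were present at 13 of 17 citric acid cycle genes (76.5%), 29 of 42 assembly factors not taken in by the names above (69.0%), 54 of 78 mitochondrial ribosomal protein genes (69.2%) and 12 of 14 regulators of nuclear respiratory genes and of mitochondrial DNA (85.7%), beside 43.4% of the 99 genes. CYCS, the mobile electron carrier cytochrome c, had N-MYC in all 3 DMSO lists and both IMR-32 lists. Cytosolic ribosomal protein genes had an N-MYC consensus region at 81 of 91 (89.0%) and a WDR5 one at 58 (63.7%), beside 8 of the 99 for WDR5. WDR5 was at 11 of 78 mitochondrial ribosomal protein genes (14.1%) and at 9 of 42 other assembly factors (21.4%). Cobound regions were present at 57 cytosolic ribosomal protein genes (62.6%), against 4 oxidative phosphorylation genes.

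With the compound, N-MYC consensus regions were present at 44 of 91 cytosolic ribosomal protein genes, against 81 in DMSO, and at 35 of 99 oxidative phosphorylation genes, against 43. In the libraries the cytosolic ribosomal protein genes had N-MYC in 91.2, 84.6 and 86.8% with DMSO and in 57.1, 19.8 and 58.2% with the compound, so the groups did not overlap. The oxidative phosphorylation genes, at 57.6, 39.4 and 49.5% and 47.5, 14.1 and 43.4%, did overlap. All protein-coding genes, at 43.8, 29.8 and 37.1% and 33.9, 10.7 and 36.6%, overlapped as well. The cut to lists of equal length was not made for the cytosolic ribosomal protein genes. In IMR-32 the order of the lists was kept for the most part, with N-MYC consensus regions at 66 of 91 cytosolic ribosomal protein genes (72.5%), 27 of 78 mitochondrial ones (34.6%), 14 of 42 other assembly factors (33.3%), 5 of 17 citric acid cycle genes (29.4%) and 23 of 99 oxidative phosphorylation genes (23.2%). Differences between lists were not tested.

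**Figure D5:**
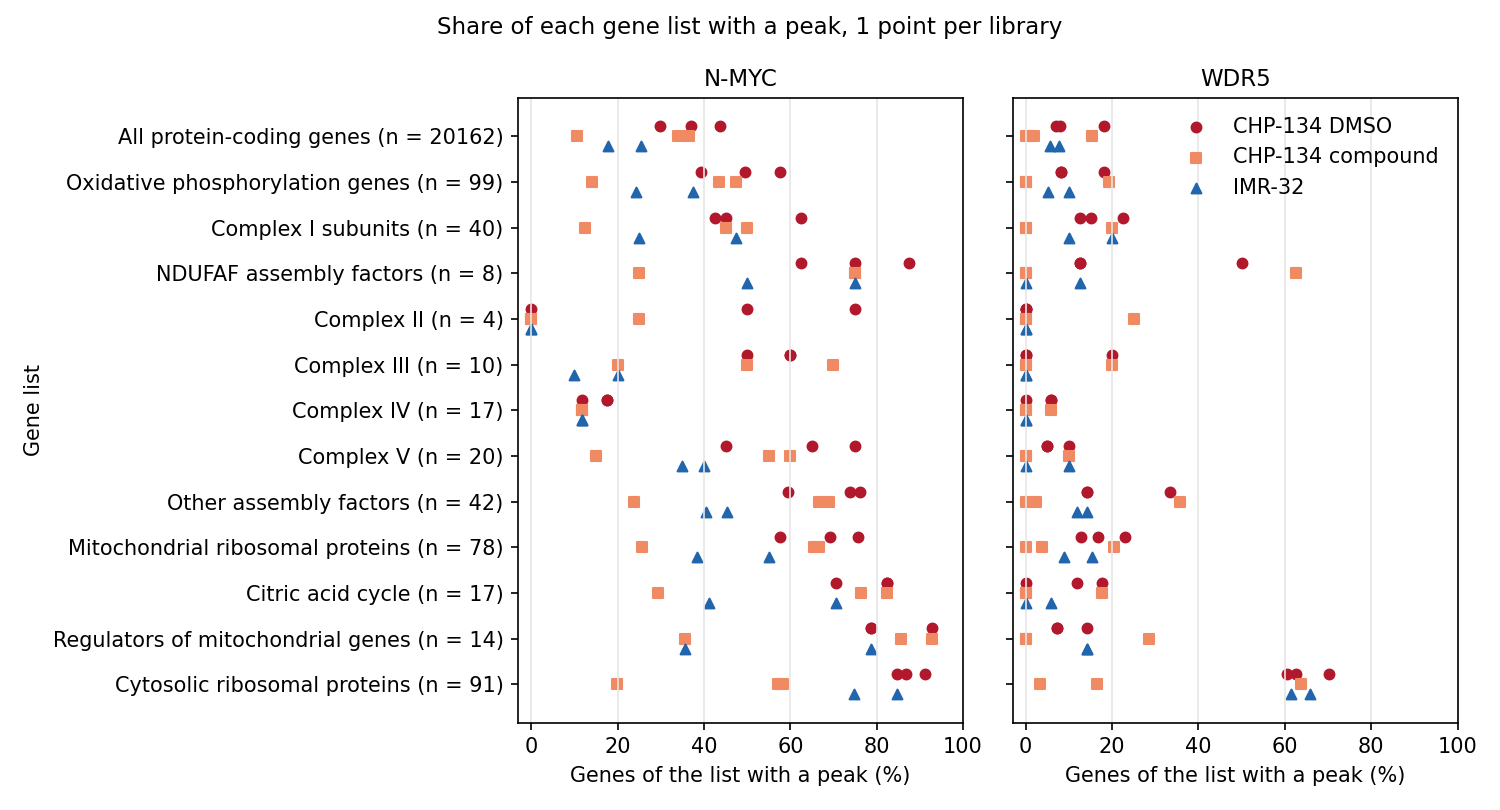
Percent of the genes of each list (rows, number of genes in brackets) with an N-MYC peak (left) or a WDR5 peak (right), with 1 point per library and colour and shape by group. In the N-MYC panel the points of complex IV lie at 11.8 to 17.6%, and in the WDR5 panel the cytosolic ribosomal protein genes lie apart from the rest in DMSO and IMR-32.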

How the data were processed

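Peak lists of 16 ChIP-seq libraries were analysed (CHP-134 with DMSO or compound, 3 N-MYC and 3 WDR5 libraries each, and IMR-32, 2 of each). Before deposit, the authors removed adapters (Cutadapt), mapped the reads to hg19 (Bowtie2) and ran MACS2 on each library with a q-value limit of 0.05. Versions and the control library are not given in the sources used here. The deposited lists hold a fold (a linear ratio of signal to local background), a p-value and a q-value as −log10, a whole-number score, and the summit. The deposited fold was used for percentiles within a list, to pick the strongest peaks and, as log2 fold, in an alternative limma setting. The −log10 q-value was used for an alternative filter and to order peaks of equal fold. It also chose, among the lists of a group, the summits behind the printed windows and the E-box count given with them. The score was not used.

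TSSs were those of basic transcripts of protein-coding genes in GENCODE 44 mapped to GRCh37 (56285 TSSs). Consensus regions merged overlapping peaks and needed 2 libraries, after the rule the study gives for DiffBind, which was not run. Libraries were compared by exact permutation tests (two-sided, scipy 1.17.1, Benjamini-Hochberg over 10 tests, 1 of them with a single library in an arm and not printed) and genes by limma 3.58.1 (R 4.3.3, Benjamini-Hochberg over all genes with a peak in every library of the fit, threshold 0.05). A library with fewer than 5 of the genes gave no median percentile. Python 3.11.15, pandas 2.3.3 and numpy 2.4.6 were used. The steps were tested on simulated data.

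Same-numbered libraries deviated together from their group means over the 2037 genes with N-MYC in all CHP-134 libraries (Pearson correlation of 0.588, 0.528 and 0.595 for replicates 1, 2 and 3 of DMSO and compound, against -0.332 to -0.252 for different numbers), so the numbers were taken to pair the libraries.

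The genes, the other gene lists and the tests were chosen with earlier results of these data known. The genes named with their values are the 3 of each class with the highest mean N-MYC percentile in DMSO among those with a peak in all 3 libraries, the 10 with the highest mean WDR5 percentile among those with WDR5 in 2 DMSO libraries (9 qualified), those cobound in IMR-32, the complex II genes and CYC1, genes without N-MYC in DMSO, genes called by limma, and a list of isoforms and copies (COX4I2, COX6A2, COX6B2, COX7A1, COX7B2, COX8C, NDUFA4L2 and UQCRHL). Other genes were named after their values were seen. Some items of these lists are not reported here.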

Additional observations from a re-analysis of the deposited data

How the results depend on the processing

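Of 236 alternative values over all results, 14 turned the direction, and no exact test of libraries passed the threshold under any of them. Groups hold 2 or 3 libraries, so most exact tests could not reach 0.05 and say little about stability. With the strongest peaks in equal number, the N-MYC share turned to 0.673 points for the compound and 1.85 for IMR-32, the N-MYC percentile for the compound to -9.80, and the differences between antibodies to 2.69 and 2.86. The N-MYC percentile for the compound was -13.0 over genes with a peak in every library, and that for IMR-32 was 6.03 at −log10 q of at least 5. N-MYC against WDR5 in CHP-134 turned to 0.511 with 2 kb, 3.22 with 1 TSS per gene and 2.33 without assembly factors. The causes were not tested. Too few genes with WDR5 were left for its percentiles under equal numbers, with peaks in every library or, for the compound, with the block, so these were not run.

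Leaving out a library moved the N-MYC share from -20.0 to -3.37 (compound) and from -24.6 to -11.4 (IMR-32), the WDR5 share from -11.4 to -1.68 (compound) and from -6.40 to -0.505 (IMR-32), the WDR5 percentile from -9.997 to -5.29 (compound) and from -20.6 to -4.35 (IMR-32), N-MYC against WDR5 in IMR-32 from 0.146 to 16.4, the IMR-32 N-MYC percentile from -9.58 to 1.41, N-MYC against WDR5 in CHP-134 from -2.30 to 2.80, and the differences between antibodies from -14.98 to 1.68 and from -20.7 to -7.58. With the replicate block (paired exact test, smallest p 0.25), p was 0.25 for the N-MYC share (-13.8), 0.5 for the WDR5 share (-5.05) and the N-MYC percentile (5.01), and 1 for N-MYC against WDR5 in CHP-134, and limma called 0 genes. The block changed no call.

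limma called none of the oxidative phosphorylation genes under any setting. Over all genes it called 10 for N-MYC between lines on the centred log2 fold. For WDR5 between lines it called 169 on that scale, 25 on percentiles among the genes of the fit, 2 at −log10 q of at least 5, and 0 to 5 when a library was left out.

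Cobound genes in DMSO were 19 with peaks of any library, 2 with peaks in every library, 2 at −log10 q of at least 5 and 2 to 4 without a library. In IMR-32 they were 6 with any library and 0 at −log10 q of at least 5. Without a library they were 1 to 3, but 1 antibody then had a single list, so its peaks needed no other library. Consensus counts without a library, added after seeing the data, were 34 to 40 (N-MYC) and 3 to 5 (WDR5) in DMSO, and 14 to 35 and 0 with the compound. In IMR-32 a single list was then left. Its values, 24 to 37 for N-MYC and 5 to 10 for WDR5, are thus counts of single lists and not of consensus regions.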
